A study of Mus musculus with 9 samples.

Results

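The genes described here are 6 general endothelial genes (Pecam1, Cdh5, Kdr, Flt1, Tek and Tie1) and 4 genes of the blood-brain barrier (Cldn5, Slco1c1, Mfsd2a and Slc2a1), taken by symbol from a table of gene expression in the embryonic mouse cortex. All 10 were in the table, out of 14670 genes in all. The study removed one of 2 partners, the receptor Fzd3 or the cadherin Celsr3, and asked how this changed the developing cortex. Total RNA of microdissected cortices was sequenced in 9 libraries at embryonic day 16.5, 3 for each genotype. The Fzd3 mutants were Fzd3 -/-, the Celsr3 mutants were Celsr3 -/-, and the controls were labelled +/+, while the methods describe control mice as littermates that were wild-type or carried 1 mutant copy. All were on a mixed C57Bl/6 and CD1 background. Each mutant embryo carried its 1 mutation in every cell, endothelial cells included. The pooling of embryos within a library is not given in the sources used here.

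Blood vessels enter the cortex from the surrounding plexus and grow towards the ventricle along gradients of VEGF made by neural progenitors. Their endothelial cells carry VEGF receptors, angiopoietin receptors and adhesion molecules in every organ, and in the brain they also make tight junctions and transporters that form the blood-brain barrier. The barrier program depends on Wnt7 ligands from neural cells, which act through beta-catenin in endothelial cells.

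Values are CPM, the reads of a gene scaled to a common library size by the authors, so that a CPM is not a number of molecules. The sum over all genes ran from 990141 CPM in Fzd3 mutant library 2 to 1.0122e+06 CPM in control library 2. A CPM is therefore only close to a share of a library. The step between the lowest values of a library, which is what 1 read was worth, ran from 0.0142 CPM in Celsr3 mutant library 4 to 0.0251 CPM in control library 3, and 100% of the 100 lowest values of each library were whole multiples of it within 0.1 of a step. A floor of 3 reads was therefore at most 0.0752 CPM, far below all 10 genes, and it covers counting error only. Differences are given on the scale of log2(CPM + 0.5), from 1 limma fit of all 9 libraries and 14670 genes, with Benjamini-Hochberg adjusted P and a threshold of 0.05. The P-values measure the spread between these libraries, which may be technical.

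The labels were first compared with the mutated genes. Celsr3 had control values of 196, 243 and 214 CPM, against 122, 139 and 118 in Celsr3 mutants, a log2 difference of -0.78 ± 0.09 (SE, n = 3 per group, limma adjusted P = 0.0018). The 3 Celsr3 mutants lay below all other libraries. Fzd3 had control values of 58.0, 67.7 and 46.9 CPM, against 46.5, 39.8 and 59.6 in Fzd3 mutants, and these groups overlapped. The Fzd3 mutant allele lacks exon 3, while the CPM covers the whole gene, so Fzd3 RNA does not check the label.

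One library stood apart. Celsr3 mutant library 4 held 87.6 CPM of the fibroblast collagen gene Col3a1, against 2.61 to 6.86 CPM in the other 8 libraries. Its summed CPM over the 7 listed meningeal and fibroblast markers was 241, against 78.6 and 79.4 in the other Celsr3 mutants. All 6 general endothelial genes, Cldn5, Mfsd2a and Slc2a1 were also highest in this library among the Celsr3 mutants. Counts and medians of the general endothelial and barrier genes in Celsr3 mutants are therefore given with and without it, as are the counts of most other lists.

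Flt1 and Kdr, which encode receptors for VEGF, rose in Fzd3 mutants. Flt1, VEGF receptor 1, which binds VEGF tightly and limits its signal, is XLOC_026112 in the table and lies at chr5:147561604-147726011 on the minus strand of GRCm38. It had control values of 14.6, 13.7 and 14.8 CPM, against 30.4, 24.2 and 24.5 in Fzd3 mutants, while Celsr3 mutants gave 14.0, 12.9 and 17.9. Every Fzd3 mutant was above every other library, while controls and Celsr3 mutants overlapped. The ratio of the means of Fzd3 mutants and controls was 1.84, and the log2 difference was 0.85 ± 0.12 (SE, n = 3 per group, limma adjusted P = 0.00054). In a bulk sample, more cells of a type and more RNA per cell cannot be told apart.

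Kdr, VEGF receptor 2 and the main signalling receptor of this family, is XLOC_025549 at chr5:75932827-75978458 on the minus strand. It had control values of 32.1, 31.0 and 31.8 CPM, against 51.1, 50.4 and 41.7 in Fzd3 mutants, while Celsr3 mutants gave 35.9, 28.4 and 42.4. The Fzd3 mutants did not overlap the controls, and Celsr3 mutant library 4 lay just above the lowest Fzd3 mutant. The log2 difference between Fzd3 mutants and controls was 0.58 ± 0.12 (SE, n = 3 per group, limma adjusted P = 0.0049), a ratio of means of 1.51.

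The angiopoietin receptor Tek and its relative Tie1 gave smaller differences. Tek (XLOC_022049, chr4:94739289-94874976) had control values of 7.09, 7.27 and 5.97 CPM, against 8.90, 9.09 and 8.61 in Fzd3 mutants, while Celsr3 mutants gave 6.48, 6.39 and 10.7. The Fzd3 mutants lay above all controls, but the log2 difference of 0.37 ± 0.17 (SE, n = 3 per group) missed the threshold (limma adjusted P = 0.12). Without Celsr3 mutant library 4, which also sets the common spread of the fit, the same difference had an adjusted P of 0.0185. Tie1 (XLOC_023660) had control values of 11.6, 11.8 and 9.63 CPM, against 11.3, 12.2 and 11.8 in Fzd3 mutants, while Celsr3 mutants gave 11.1, 11.4 and 15.3. All 3 genotypes overlapped for Tie1, with a log2 difference of 0.10 between Fzd3 mutants and controls and a 95% interval from -0.17 to 0.37.

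The adhesion molecules of endothelial junctions, Pecam1 and Cdh5, did not pass the test. Pecam1 (XLOC_006115) had control values of 14.3, 17.1 and 16.2 CPM, against 16.3, 17.6 and 17.1 in Fzd3 mutants, while Celsr3 mutants gave 16.1, 15.6 and 21.1. Cdh5 (XLOC_031896), which encodes VE-cadherin, had control values of 14.6, 14.1 and 15.4 CPM, against 16.4, 15.1 and 14.1 in Fzd3 mutants, while Celsr3 mutants gave 16.5, 13.1 and 21.5. Groups overlapped for both genes. The log2 differences were 0.10 for Pecam1, with a 95% interval from -0.14 to 0.34, and 0.05 for Cdh5, with an interval from -0.26 to 0.36. Set against Cdh5 in the same library, Kdr gave a log2 ratio of 1.14, 1.14 and 1.05 in the controls. The Fzd3 mutants gave 1.64, 1.74 and 1.57. This ratio follows from the separate differences of Kdr and Cdh5, and the cells that made their RNA were not tested.

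In all, 2 of 6 general endothelial genes were called higher in Fzd3 mutants than in controls, where 15.0% of all genes were called higher and 14.8% lower. The median log2 difference of the 6 genes was 0.23, against -0.00 over all genes. A total of 3 of 6 had all Fzd3 mutants above all controls, as had 21.6% of all genes.

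**Figure D1:**
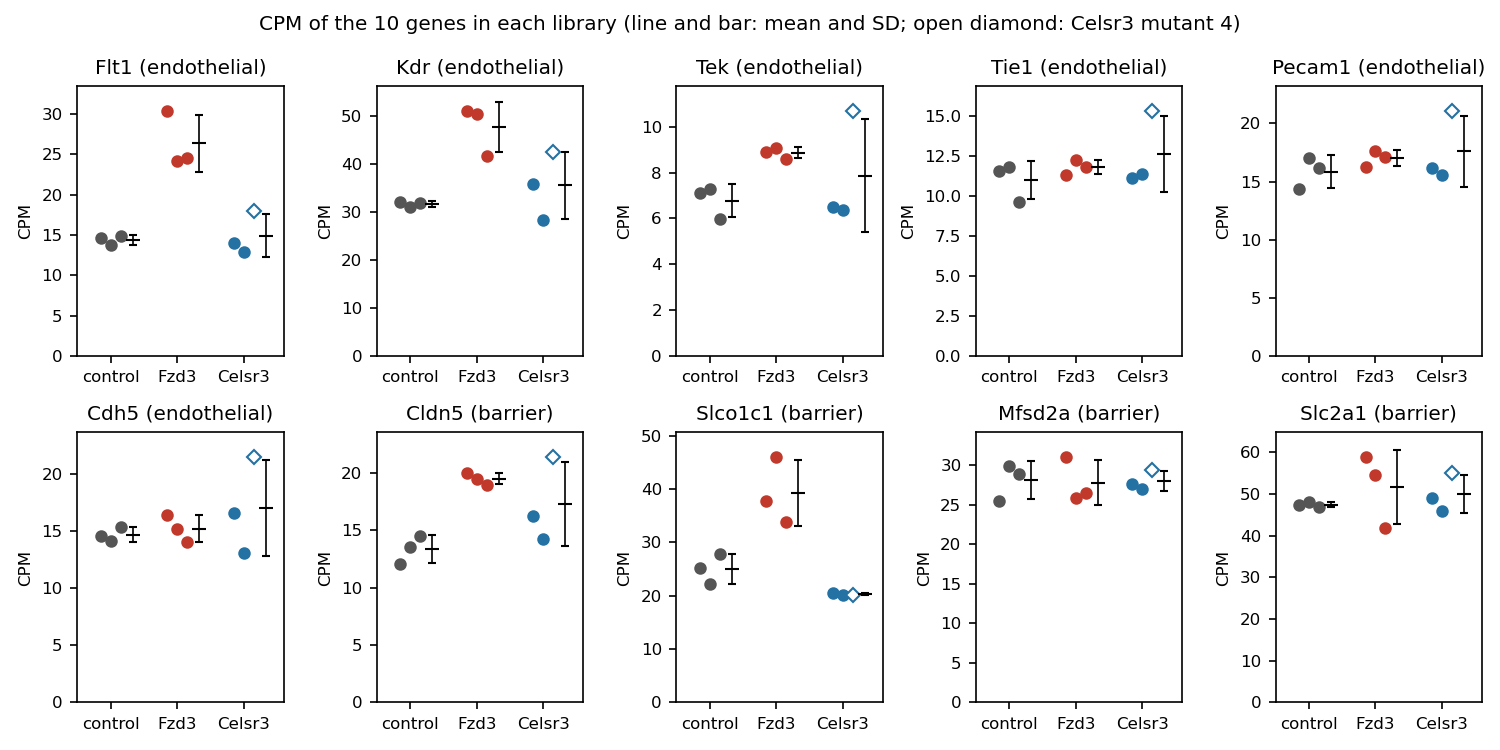
CPM of the 6 general endothelial and 4 barrier genes (vertical axes, from 0) in the 9 libraries by genotype, with each point a library, the line and bar the mean and SD, and the open diamond Celsr3 mutant library 4. Flt1, Kdr, Tek, Cldn5 and Slco1c1 show all 3 Fzd3 mutants above all 3 controls.

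Barrier genes divided into a pair that rose and a pair that did not pass. Cldn5, the main claudin of brain endothelial tight junctions (XLOC_011941, chr16:18776847-18778262 on the plus strand), had control values of 12.02, 13.5 and 14.5 CPM, against 20.0, 19.5 and 19.0 in Fzd3 mutants, while Celsr3 mutants gave 16.2, 14.3 and 21.4. The Fzd3 mutants lay in a narrow range above every control, and the highest value of all 9 libraries was that of Celsr3 mutant library 4. The log2 difference between Fzd3 mutants and controls was 0.53 ± 0.13 (SE, n = 3 per group, limma adjusted P = 0.00879).

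Slco1c1, a transporter of thyroid hormone (XLOC_027100, chr6:141524368-141570177 on the plus strand), had control values of 25.1, 22.3 and 27.9 CPM, against 37.8, 46.0 and 33.8 in Fzd3 mutants, while Celsr3 mutants gave 20.6, 20.2 and 20.1. The 3 genotypes did not overlap, with Fzd3 mutants highest and Celsr3 mutants lowest. The log2 difference between Fzd3 mutants and controls was 0.63 ± 0.11 (SE, n = 3 per group, limma adjusted P = 0.00148), a ratio of means of 1.56.

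Mfsd2a, a lipid transporter that limits transcytosis, had control values of 25.4, 29.9 and 28.9 CPM, against 31.0, 25.9 and 26.5 in Fzd3 mutants, while Celsr3 mutants gave 27.6, 26.9 and 29.4. Slc2a1, the glucose transporter of barrier endothelium, which other cells also use, had control values of 47.3, 48.2 and 46.9 CPM, against 58.9, 54.6 and 41.7 in Fzd3 mutants, while Celsr3 mutants gave 49.0, 46.0 and 55.0. All 3 genotypes overlapped for both genes. The log2 difference of Mfsd2a was -0.02, with a 95% interval from -0.20 to 0.17, and that of Slc2a1 was 0.11, with an interval from -0.13 to 0.35. Fzd3 mutant library 3 held the lowest Slc2a1 value of all, and without it the log2 difference of Slc2a1 was 0.25 (limma adjusted P = 0.0264). This was the only call of Slc2a1 in 22 alternatives, whose log2 differences ran from 0.00811 to 0.25. Thus 2 of 4 barrier genes were called higher, against 15.0% of all genes, with a median log2 difference of 0.32 against -0.00 over all genes.

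In Celsr3 mutants, 0 of 6 general endothelial and 0 of 4 barrier genes were called by limma, where 0.307% of all genes were called in either direction. At an unadjusted P under 0.05 there were 0 of 6 and 2 of 4, against 5.45% of all genes, and the 2 were Cldn5, at a log2 difference of 0.35 ± 0.13 (SE), and Slco1c1, at -0.29 ± 0.11 (SE), both with a limma adjusted P of 0.768. Slco1c1 was the 1 barrier gene with all Celsr3 mutants below all controls, as were 5.27% of all genes. The median log2 difference of the general endothelial genes was 0.16, and 0.00 without library 4. Without that library limma again called 0 of 6 and 0 of 4, and the count at an unadjusted P under 0.05 was 0 of 6 and 1 of 4. Cldn5 gave 0.19 and no longer had an unadjusted P under 0.05, Slco1c1 gave -0.29 again, and the median of the barrier genes went from 0.03 to -0.02.

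**Figure D2:**
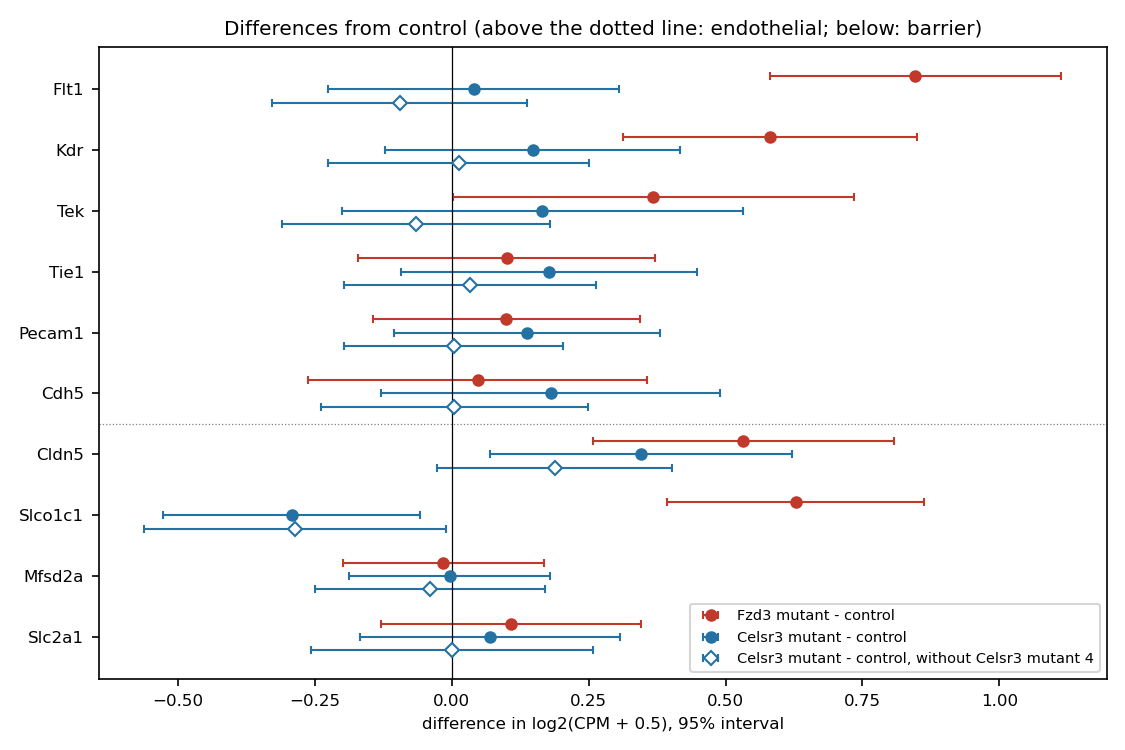
Difference in log2(CPM + 0.5) from control (horizontal axis) with 95% intervals for each of the 10 genes, for Fzd3 mutants, for Celsr3 mutants, and for Celsr3 mutants without library 4. The intervals of Flt1, Kdr, Tek, Cldn5 and Slco1c1 in Fzd3 mutants lie above 0, that of Tek by its lower end of 0.00133, and without library 4 the general endothelial genes of Celsr3 mutants lie between -0.10 and 0.03.

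The mutants were also compared directly, since both share the controls. Flt1 was higher in Fzd3 than in Celsr3 mutants by 0.81 ± 0.12, Slco1c1 by 0.92 ± 0.11 and Kdr by 0.43 ± 0.12 on the log2 scale (SE, n = 3 per group, limma adjusted P = 0.000825, 0.000196 and 0.0211), where 15.3% of all genes were called higher and 14.3% lower. Kdr lost its call without Fzd3 mutant library 1, at 0.38 (limma adjusted P = 0.0831). It also lost its call without Fzd3 mutant library 2, at 0.39 (0.0767), or Celsr3 mutant library 2, at 0.28 (0.0637). Without Celsr3 mutant library 4, Cldn5 and Tek passed as well, at 0.35 (adjusted P = 0.0291) and 0.43 (0.0205).

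For Flt1, Kdr, Slco1c1 and Cldn5, the members called higher in Fzd3 mutants, the 250 bases before the start are shown, 5′ to 3′, from RefSeq on GRCm38.p6. The reference held such a window for 8 of the 10 genes. Capitals mark GGAAG or, on the other strand, CTTCC, the core that ETS factors bind. The windows are chr5:147726012-147726261 for Flt1 and chr5:75978456-75978705 for Kdr, both on the minus strand, and chr6:141524104-141524353 for Slco1c1 and chr16:18776597-18776846 for Cldn5, both on the plus strand.
Flt1: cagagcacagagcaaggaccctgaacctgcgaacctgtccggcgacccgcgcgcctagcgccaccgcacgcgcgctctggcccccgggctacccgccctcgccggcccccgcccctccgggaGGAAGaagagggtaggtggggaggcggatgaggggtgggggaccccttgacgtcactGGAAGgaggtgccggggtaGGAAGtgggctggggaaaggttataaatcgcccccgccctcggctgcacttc
Kdr: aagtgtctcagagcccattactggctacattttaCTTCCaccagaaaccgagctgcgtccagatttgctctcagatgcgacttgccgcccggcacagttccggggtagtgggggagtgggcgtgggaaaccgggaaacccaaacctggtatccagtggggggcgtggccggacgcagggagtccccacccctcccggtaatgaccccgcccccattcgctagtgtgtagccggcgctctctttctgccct
Slco1c1: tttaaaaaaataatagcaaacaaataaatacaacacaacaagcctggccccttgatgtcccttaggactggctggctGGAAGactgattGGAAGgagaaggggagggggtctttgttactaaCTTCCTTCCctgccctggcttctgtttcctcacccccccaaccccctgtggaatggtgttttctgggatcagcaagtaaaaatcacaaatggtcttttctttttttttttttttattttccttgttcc
Cldn5: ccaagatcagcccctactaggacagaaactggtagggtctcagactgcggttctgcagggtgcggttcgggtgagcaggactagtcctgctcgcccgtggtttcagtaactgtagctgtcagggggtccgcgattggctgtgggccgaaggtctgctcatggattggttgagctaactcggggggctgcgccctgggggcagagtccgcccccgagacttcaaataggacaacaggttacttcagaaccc

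The marked form of the ETS core occurred 3 times in the Flt1 window, once in that of Kdr and 4 times in that of Slco1c1. It was not found in that of Cldn5. The most, 6, were in the window of Tie1, which was not called. Among the 8 windows, 4 held it, against 63.6% of 27025 promoters of the same length. The sequence ACGTG, 1 form of the hypoxia response core, or its complement CACGT, was in 2 of the 8 windows. These were the windows of Mfsd2a and Slc2a1, and 16.6% of all promoters held it. The form GCGTG, which the Kdr window holds, was not counted. The TCF/LEF core CTTTG, or its complement CAAAG, was in 3 of the 8 and in 48.8% of all promoters. Bases G and C made up 70.4% of the Flt1 window, 61.6% of that of Kdr, 59.6% of that of Cldn5 and 42.8% of that of Slco1c1, with a median of 52% over all promoters.

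The barrier genes were set against the endothelial genes within each library, as the log2 of CPM over the geometric mean CPM of the 6 general endothelial genes. This is a description without a test. Mfsd2a had control values of 0.84, 1.06 and 1.07, against 0.74, 0.51 and 0.63 in Fzd3 mutants, while Celsr3 mutants gave 0.92, 1.02 and 0.58. Slc2a1 had control values of 1.74, 1.75 and 1.77, against 1.66, 1.59 and 1.29 in Fzd3 mutants. All Fzd3 mutants lay below all controls for these 2 transporters. Set against Cdh5 alone the same groups overlapped, so the lower ratios depended on the genes in the geometric mean, which include Flt1 and Kdr. For Slc2a1 the mean difference was -0.24 against the geometric mean, but 0.06 against Cdh5 and 0.0059 against Pecam1. For Mfsd2a it was -0.37, -0.06 and -0.12 in the same order.

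Cldn5 and Slco1c1 gave other patterns on this ratio scale. Cldn5 had control values of -0.24, -0.09 and 0.07, against 0.10, 0.10 and 0.15 in Fzd3 mutants, while Celsr3 mutants gave 0.16, 0.11 and 0.13, so both mutants lay above the controls. Slco1c1 had control values of 0.83, 0.63 and 1.02, against 1.02, 1.34 and 0.98 in Fzd3 mutants, while Celsr3 mutants gave 0.50, 0.61 and 0.04. Slco1c1 was lower in each Celsr3 mutant than in each control, also against Cdh5 alone and against Pecam1 alone, and library 4 gave the lowest value. In library 4 the geometric mean was 19.6 CPM, against 14.6 and 13.2 in Celsr3 mutant libraries 1 and 2. Slco1c1 itself was 20.1 CPM there, against 20.6 and 20.2, so the lowest ratio reflects the higher geometric mean. Fzd3 mutants and controls overlapped for Slco1c1 against the geometric mean, but against Cdh5 alone or Pecam1 alone all Fzd3 mutants lay above all controls.

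**Figure D3:**
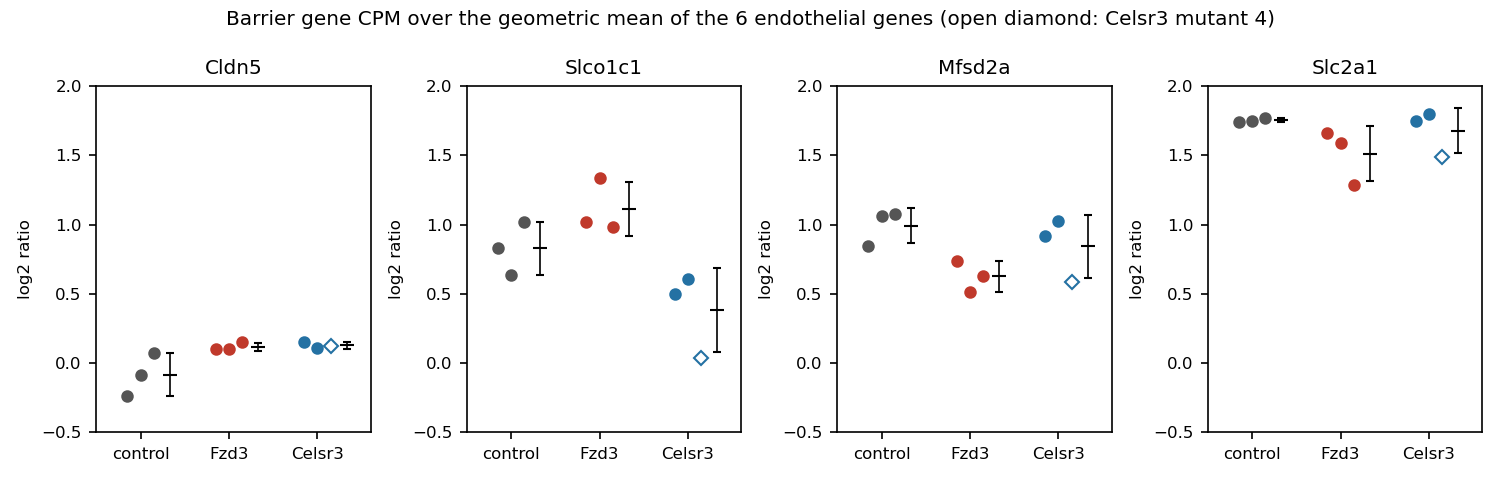
Log2 ratio of the CPM of each barrier gene to the geometric mean CPM of the 6 general endothelial genes (vertical axis) in the 9 libraries, with the mean and SD of each genotype and Celsr3 mutant library 4 as an open diamond. Mfsd2a and Slc2a1 lie lower in Fzd3 mutants than in controls, and Slco1c1 lies lowest in Celsr3 mutants.

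Levels between genes were compared as CPM per kb of annotated exons (GENCODE M21). In the controls, Slc2a1 was highest at 13.5 ± 0.186, before Mfsd2a at 12.5 ± 1.06, Cldn5 at 9.42 ± 0.873 and Slco1c1 at 4.84 ± 0.542 (SD, n = 3), so the 4 barrier genes came first, as they also did with the length of the longest transcript. Kdr at 3.50 ± 0.065 and Cdh5 at 3.49 ± 0.156 overlapped, as did Pecam1 at 2.55 ± 0.223 and Tie1 at 2.24 ± 0.243, and Tek at 1.44 ± 0.15 and Flt1 at 1.06 ± 0.044 were lowest (SD, n = 3). These orders depend on the length used, and in CPM with no length Kdr ranked 2 and Cldn5 ranked 8 in the controls. In the Fzd3 mutants Flt1 reached 1.95 ± 0.26 and overlapped Tek at 1.88 ± 0.0515 (SD, n = 3), but with the longest transcript Flt1 lay above Tek without overlap, at 3.83 against 1.90, as it did in the controls, at 2.08 against 1.46. Cldn5 at 13.8 ± 0.345 overlapped both Slc2a1 and Mfsd2a in the Fzd3 mutants. In the Celsr3 mutants Slco1c1 at 3.92 ± 0.0448 overlapped Kdr at 3.94 ± 0.777 and Cdh5 at 4.05 ± 1.00 (SD, n = 3), while with the longest transcript it lay above Cdh5 without overlap, at 6.39 against 4.26.

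Of 28 other endothelial genes, 27 were in the table, and in Fzd3 mutants 5 were called higher, 0 lower and 22 neither, with a median log2 difference of 0.22 against -0.00 over all genes. With Celsr3 mutant library 4 in the fit, 15.0% of all genes were called higher, near the share in this list. Without that library 8 of 27 were called higher, so the share in this list was no longer near 15.0%. Over all genes, calls in either direction did not rise, at 4279 without that library against 4366 with it. The call of Egfl7 held in 13 of 22 alternatives, and those of Ets1 and Ptprb in 16 of 22. That of Sox17 held in 21 of 21. The transcription factor Sox17 had control values of 0.732, 0.903 and 1.08 CPM, against 1.81, 1.73 and 1.60 in Fzd3 mutants, and the groups did not overlap. Its log2 difference was 0.66 ± 0.16 (SE, n = 3 per group, limma adjusted P = 0.0114). In Celsr3 mutants limma called 0 of 27, against 0.307% of all genes. At an unadjusted P under 0.05 there were 0, against 5.45% of all genes, and the median was 0.11. Without library 4 limma called 0 of 27 again, with 2 at an unadjusted P under 0.05 and a median of -0.02.

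Of 29 other barrier genes, 27 were in the table, and in Fzd3 mutants 5 were called higher and 1 lower, with a median of 0.09, against 15.0% higher and 14.8% lower over all genes. Bsg, which pairs with lactate transporters and is made by many cells, rose from 161, 153 and 172 CPM in the controls to 201, 195 and 183 CPM in the Fzd3 mutants. Its log2 difference was 0.25 ± 0.06, and those of the efflux transporter Abcc4 and the proteoglycan gene Spock2 were 0.68 ± 0.17 and 0.54 ± 0.09 (SE, n = 3 per group, limma adjusted P = 0.00631, 0.0108 and 0.0011). In Celsr3 mutants limma called 0 of 27 with and without library 4, with 2 at an unadjusted P under 0.05, or 3 without it. With library 4 included, 0.307% of all genes were called and 5.45% had an unadjusted P under 0.05.

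Ligands and receptors that act on these vessels were followed as 2 lists. Vegfa, the ligand of Flt1 and Kdr, had control values of 48.4, 36.7 and 41.4 CPM, against 68.1, 74.8 and 54.2 in Fzd3 mutants, while Celsr3 mutants gave 41.6, 43.8 and 42.9. All Fzd3 mutants were above all other libraries, and the log2 difference from controls was 0.63 ± 0.12 (SE, n = 3 per group, limma adjusted P = 0.00227). Of 9 listed genes of VEGF and angiopoietin signalling, 3 were called higher and 0 lower, with a median of 0.34, against 15.0% higher and 14.8% lower over all genes (2 of 9 higher without Celsr3 mutant library 4). Apln, a peptide of endothelial tip cells, rose by 0.59 (limma adjusted P = 0.0177). This call was lost without control library 1, Fzd3 mutant library 1 or Fzd3 mutant library 2. The log2 differences were then 0.44, 0.51 and 0.52, and the highest limma adjusted P over the alternatives was 0.0741. The VEGF co-receptors Nrp1 and Nrp2 were not called, at 0.06 and -0.08, nor was Flt4, a receptor of the same family from the list of other endothelial genes, at -0.13. In Celsr3 mutants limma called 0 of 9 with and without library 4, with 1 at an unadjusted P under 0.05, or 0 without it. With library 4 included, 0.307% of all genes were called and 5.45% had an unadjusted P under 0.05.

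Of 12 genes of Wnt7 and Norrin signalling to vessels, 1 was called higher and 2 lower in Fzd3 mutants, with a median of -0.12, near the shares of all genes, 15.0% and 14.8% (1 lower without Celsr3 mutant library 4). Fzd4, the endothelial receptor of Norrin, had control values of 2.45, 2.04 and 1.86 CPM, against 3.62, 3.71 and 2.88 in Fzd3 mutants, with a log2 difference of 0.58 ± 0.14 (SE, n = 3 per group, limma adjusted P = 0.00905). Ctnnb1, which encodes beta-catenin and is made by all cells of the cortex, fell by 0.27 on the log2 scale (limma adjusted P = 0.000568), and Wnt7b fell by 0.26 (limma adjusted P = 0.0402). The call of Wnt7b was lost in 9 of 22 alternatives, with the smallest difference, -0.15, without control library 2 and the highest adjusted P, 0.127, without Fzd3 mutant library 2. Wnt7a did not pass, with log2 differences of -0.09 in Fzd3 and -0.05 in Celsr3 mutants. In Celsr3 mutants limma called 0 of 12, with 0 at an unadjusted P under 0.05, both with and without library 4. Over all genes, with library 4 included, these shares were 0.307% and 5.45%.

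**Figure D4:**
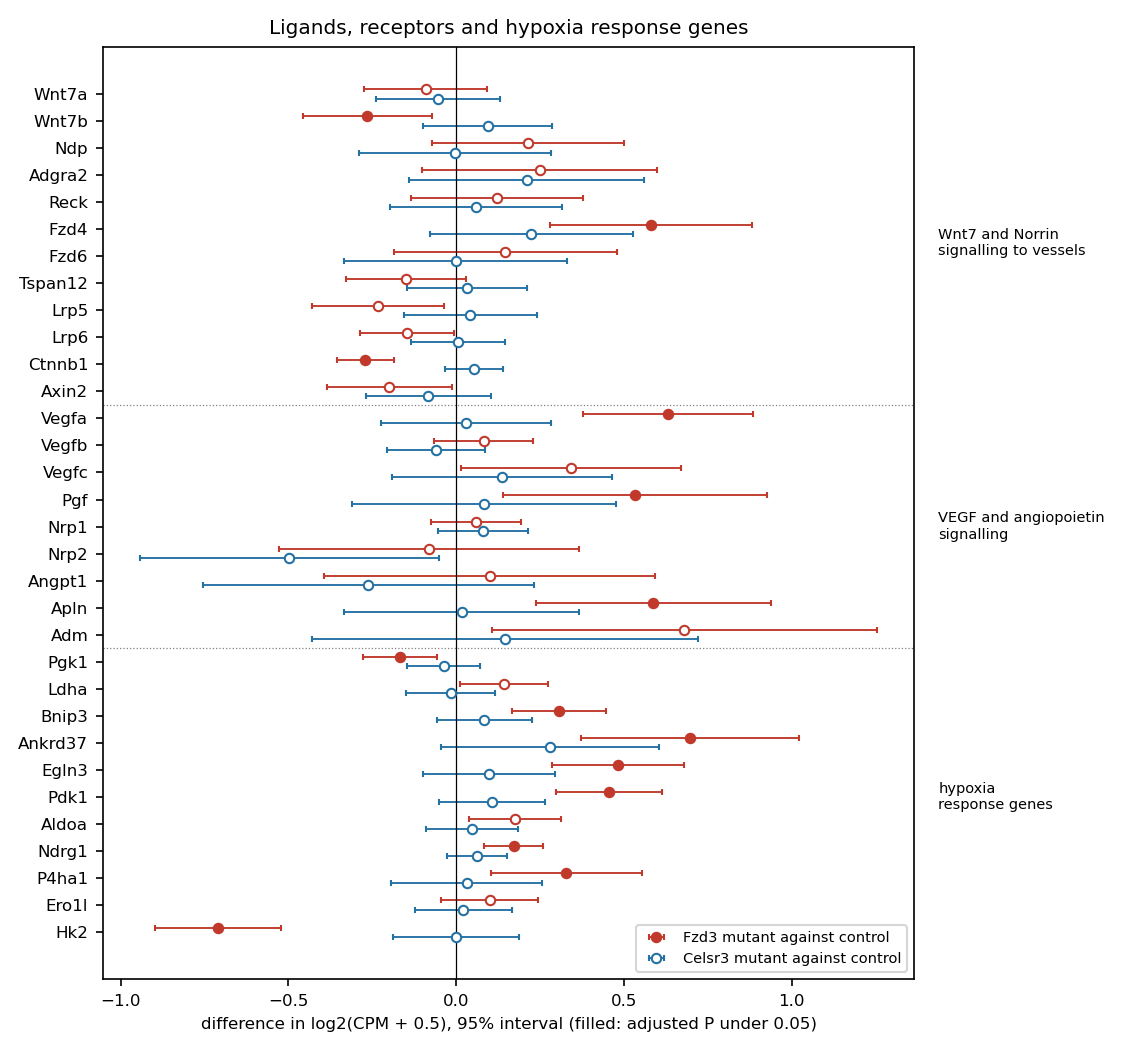
Difference in log2(CPM + 0.5) from control with 95% intervals (horizontal axis) for genes of Wnt7 and Norrin signalling, of VEGF and angiopoietin signalling and of the hypoxia response, in Fzd3 and in Celsr3 mutants, with filled points for an adjusted P under 0.05. Vegfa, at 0.63 in Fzd3 mutants and 0.03 in Celsr3 mutants, is among the filled points.

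Of 11 listed hypoxia response genes, 6 were called higher and 2 lower in Fzd3 mutants, with a median of 0.18, against 15.0% and 14.8% of all genes. Pdk1, Egln3 and Bnip3 rose by 0.45, 0.48 and 0.31 on the log2 scale (limma adjusted P = 0.00097, 0.00251 and 0.00471), and the hexokinase gene Hk2 fell by 0.71 (limma adjusted P = 0.000188). The list moved in both directions, and its part in the rise of Flt1, Kdr and Vegfa was not tested.

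Markers of other cells were followed in the same libraries. The 12 microglia and macrophage markers summed to 45.8, 53.3 and 50.4 CPM in the controls, to 76.3, 73.3 and 59.7 CPM in the Fzd3 mutants, and to 52.3, 56.6 and 74.3 CPM in the Celsr3 mutants. In Fzd3 mutants 4 of 12 were called higher and 0 lower, against 15.0% and 14.8% of all genes, with a median of 0.45. Csf1r, the most abundant, rose by 0.63 and Trem2 by 1.00 (limma adjusted P = 0.00425 and 0.00128). The sums of controls and Fzd3 mutants did not overlap.

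The 10 listed pericyte and mural cell markers summed to 113, 121 and 122 CPM in the controls, to 141, 135 and 121 CPM in the Fzd3 mutants, and to 125, 118 and 153 CPM in the Celsr3 mutants, with Rgs5 the most abundant. In Fzd3 mutants 2 of 10 were called higher, near the 15.0% of all genes, and 0 lower, with a median of 0.23 (3 of 10 higher without Celsr3 mutant library 4). Higd1b rose by 0.76 (limma adjusted P = 0.00811). Of the 14 markers chosen, Acta2, Tagln, Myh11 and Des were not among the genes analysed here.

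The 7 listed meningeal and fibroblast markers summed to 62.5, 71.5 and 64.7 CPM in the controls and to 78.4, 73.0 and 71.2 CPM in the Fzd3 mutants, with Igfbp2 the most abundant. Lum, Foxd1, Aldh1a2, Slc6a13 and Slc13a4 were not among the genes analysed here. In Fzd3 mutants 0 of 7 were called by limma, with 1 at an unadjusted P under 0.05 and a median of 0.07, where 15.0% of all genes were called higher and 14.8% lower. This 0 depends on Celsr3 mutant library 4, since without that library 2 of 7, Dcn and Col1a1, were called higher in Fzd3 mutants. The Celsr3 mutants gave 78.6, 79.4 and 241 CPM, and their median log2 difference from controls was 1.22, or 0.32 without library 4.

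The 8 listed red blood cell markers summed to 1767, 1920 and 2041 CPM in the controls, to 2288, 2445 and 1570 CPM in the Fzd3 mutants, and to 2418, 1585 and 2539 CPM in the Celsr3 mutants, with Hba-a1 the most abundant. The sums overlapped between all genotypes, with 1 of 8 called lower in Fzd3 mutants, near the 14.8% of all genes, and a median of 0.10. The 2 alpha-globin genes, like the 2 adult beta-globin genes, are near-identical copies whose reads could be shared. Of 7 choroid plexus markers, 0 were in the table.

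Of 8 radial glia markers, 5 were called lower and 0 higher in Fzd3 mutants, against 14.8% and 15.0% of all genes. Their median was -0.50, and their sums were 1351, 1398 and 1368 CPM in the controls and 1042, 1100 and 984 CPM in the Fzd3 mutants. By mean CPM, Fabp7 was the most abundant in Fzd3 mutants and Vim in the other genotypes. In control library 3 and Celsr3 mutant library 1, Fabp7 was above Vim. In Fzd3 mutants Vim and Pax6 fell by 0.62 and 0.70 (limma adjusted P = 8.14e-05 and 0.00012). Of 7 listed cortical neuron markers 2 were called higher and 4 lower, against the same shares of all genes, and Dcx was the most abundant. Neuron sums ran from 4991 to 5355 CPM over the 9 libraries. In Celsr3 mutants limma called 0 genes in each of these lists of other cells, and at an unadjusted P under 0.05 there were 3 of 12 microglia, 1 of 10 mural, 3 of 7 meningeal, 0 of 8 red blood cell, 2 of 8 radial glia and 3 of 7 neuron markers, against 5.45% of all genes. Without library 4 limma again called 0 in each list, and these counts were 2, 0, 3, 0, 3 and 3 in the same order. The part of these cell type markers in the rise of Flt1, Kdr, Cldn5 and Slco1c1 was not tested.

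**Figure D5:**
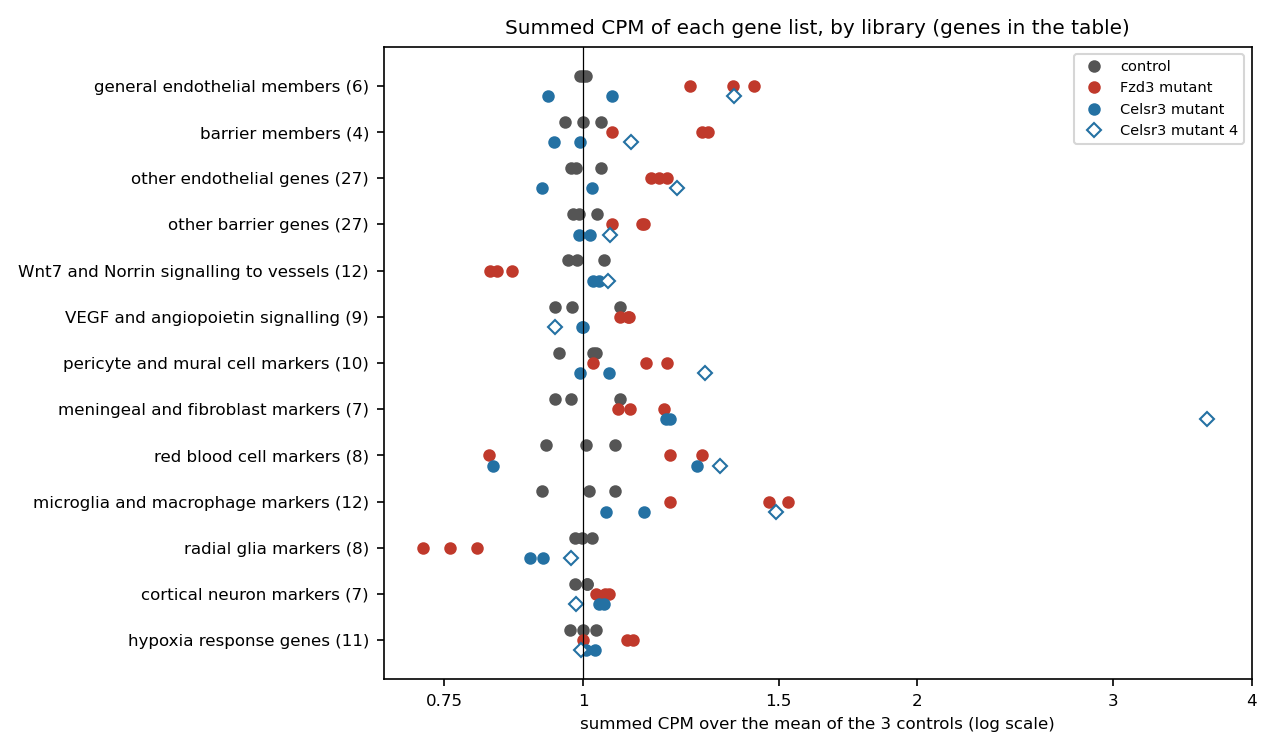
Summed CPM of each gene list relative to the mean of the 3 controls (horizontal log axis) in each of the 9 libraries, with Celsr3 mutant library 4 as an open diamond and the number of genes in brackets. The meningeal and fibroblast sum of that library was 3.64 times the control mean.

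Genes most like the 6 general endothelial genes were sought over the 9 libraries among the 14372 genes whose mean reached 1 CPM, by Pearson's r of the deviations from each genotype mean. The first 10 were Col4a1, Igf2, Gm8822, Gja1, D230017M19Rik, Col3a1, Col1a2, Enpp1, Lamc3 and Rbpms, with r from 0.966 to 0.976. Of these, 2 were in the meningeal and fibroblast list and 0 in the list of other endothelial genes, whose median r was 0.684 against -0.02 over all genes. Without Celsr3 mutant library 4 the first 10 shared 0 genes with this set and the median r of other endothelial genes was 0.181. The same 10 genes then had r from 0.532 to 0.813, so the likeness was weaker without that library. Of the barrier genes, Cldn5 gave r of 0.886, Slc2a1 0.624, Mfsd2a 0.417 and Slco1c1 0.0131 over the 9 libraries. Without Celsr3 mutant library 4 they gave 0.344, 0.726, 0.349 and 0.0737 in the same order.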

How the data were processed

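Genotypes and library numbers were taken from the labels. The authors deposited CPM per gene, already scaled and filtered for low expression. The submitters' processing notes name FastQC, TopHat, TopHat2, Bowtie, Cufflinks 2.1.1 and edgeR 2.12, with builds GRCm38 and GRCh37, without their roles. The counting and its use of strand are not given in the sources used here. CPM are not counts, so limma 3.58.1 in R 4.3.3 was run (lmFit, contrasts.fit, eBayes with trend) two-sided, on log2(CPM + 0.5), with a minimum mean of 0.5 CPM that all 14670 genes passed. The fit was tested on simulated data. Other tables came from Python 3.11.15 with numpy 2.4.6 and pandas 2.3.3, and figures from matplotlib 3.10.9. The members and the 14 lists were chosen with earlier results of these data known. Named genes are all members, the mutated genes, up to 4 called genes per list with the smallest P, the most abundant marker of each cell type, the 10 genes most like the members and any gene of the 2 signalling lists. Flt4 was named after its values were seen, and Dcn and Col1a1 for their calls without Celsr3 mutant library 4. Symbols, positions and exon lengths follow GENCODE M21. Alternatives changed the pseudocount, filter, scaling, libraries, weights and variance model; those without Celsr3 mutant library 4 for lists, ratios and likeness were chosen after seeing the data.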

Additional observations from a re-analysis of the deposited data

How the results depend on the processing

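The 4 calls in Fzd3 mutants against controls (Flt1, Kdr, Cldn5, Slco1c1) held under all 22 alternatives, and the 10 genes gave 0 calls in Celsr3 mutants under all 22. A replicate block, with the library number as a term, gave 3629, 29 and 2101 genes in the comparisons of Fzd3 mutants with controls, Celsr3 mutants with controls and the mutants directly, against 4366, 45 and 4346 without it. No other library has number 4, so this term also takes out Celsr3 mutant library 4, whose loss alone gave 4279, 39 and 3143 genes. Same-numbered libraries did not deviate together, with correlations of their deviations from -0.20 for control and Fzd3 mutant 3 to 0.19 for Fzd3 and Celsr3 mutant 1. With the replicate block Tek was called in Fzd3 mutants against controls (adjusted P = 0.0282) and against Celsr3 mutants (adjusted P = 0.0284), and with only the 6 libraries compared against controls (adjusted P = 0.027). Leaving out 1 library in turn gave 2960 to 4314, 39 to 53 and 2973 to 4471 genes in the 3 comparisons, 2 to 3 general endothelial and 2 to 3 barrier genes called between Fzd3 mutants and controls, and 1 to 3 and 1 to 2 between the mutants. Some log2 differences that were not called changed sign. With the replicate block, Celsr3 mutants against controls gave -0.00538 for Cdh5, -0.0321 for Kdr, -0.11 for Flt1, -0.12 for Tek, -0.0103 for Tie1 and -0.0767 for Slc2a1, and Fzd3 against Celsr3 mutants gave 0.0862 for Pecam1, 0.0526 for Cdh5, 0.11 for Tie1 and 0.0280 for Mfsd2a. With library weights, Mfsd2a gave 0.0164 in Fzd3 and 0.0124 in Celsr3 mutants against controls and 0.00404 between the mutants, and Flt1 gave -0.00549 in Celsr3 mutants. Rescaling to equal totals or to the same upper quartile gave 0.00674 and 0.00196 for Mfsd2a in Celsr3 mutants. Leaving out 1 library gave, in Fzd3 mutants against controls, -0.00706 to 0.10 for Cdh5 and -0.10 to 0.0323 for Mfsd2a, and in Celsr3 mutants against controls -0.10 to 0.14 for Flt1, -0.0655 to 0.29 for Tek and -0.0736 to 0.0425 for Mfsd2a. Between the mutants it gave -0.12 to 0.10 for Pecam1, -0.30 to 0.0427 for Cdh5, -0.16 to 0.0667 for Tie1, -0.0919 to 0.0364 for Mfsd2a and -0.0625 to 0.18 for Slc2a1. Of 33 list genes that the naming rule selects in Fzd3 mutants, not all of them named here, 22 were called under every alternative and 11 were lost under at least 1. Of 60 ranks of levels under other lengths, 36 moved. A count test on reads recovered from the CPM was not run.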
